A study of Mus musculus with 6 samples.

Results

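Striatal projection neuron markers were read in 6 RNA libraries of mouse tissue that the labels call PFC. The set held 9 genes, taken by name: Drd1 and Tac1 of the direct pathway, Drd2, Adora2a, Gpr6 and Penk of the indirect pathway, and Rgs9, Ppp1r1b and Pde10a of both. All 9 were among the 53640 gene symbols shared by the 6 count tables, and all 9 passed the filter on low counts, which 20694 genes passed. All mice were 6 months old, and each group had 2 libraries, described by the labels as biological duplicates. The treated tau group was PS19(P301S) mice that received WDR5-0103, a compound directed at WDR5, which is a subunit of histone methyltransferase complexes. The tau group was PS19(P301S) mice given vehicle, and the control group was mice of a C57BL/6 by C3H background given vehicle. In PS19 mice, mutant human tau (P301S) is made from a transgene under a prion gene promoter. Dose and route of WDR5-0103 and the sex of the mice were not given in the sources used here.

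Striatal projection neurons are the GABA-releasing output cells of the striatum, the large nucleus beneath the frontal cortex. Cells of the direct pathway carry the dopamine D1 receptor (Drd1) and make substance P (Tac1). Cells of the indirect pathway carry the dopamine D2 receptor (Drd2), an adenosine receptor (Adora2a) and the orphan receptor Gpr6, and they make enkephalin (Penk). Both kinds of cell share the machinery that reads these receptors: Rgs9, which shortens G protein signals, Ppp1r1b, the phosphatase inhibitor DARPP-32, and Pde10a, which degrades cyclic nucleotides. Cortex is not free of these transcripts, since Drd1 and Ppp1r1b are found in deep-layer cortical neurons and Penk and Tac1 in cortical interneurons. Adora2a and Gpr6 are the markers with the least known expression in cortical neurons. In bulk tissue, a larger share of striatal cells in a sample and more RNA per cell cannot be told apart.

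The stretches just before the transcription starts of both dopamine receptor genes and of the other 2 genes that passed the test below are shown as background. Folds were not compared between genes by a test. Each gives the 250 bases before the start, 5′ to 3′ on the gene's strand, from RefSeq on GRCm38.p6. Capitals mark matches on either strand to TGACGTCA (the full cyclic AMP response element, CRE), to CGTCA (its core, which the full element contains), to GGGCGG (the GC box) and to TATAAA (the TATA box).
Gpr6: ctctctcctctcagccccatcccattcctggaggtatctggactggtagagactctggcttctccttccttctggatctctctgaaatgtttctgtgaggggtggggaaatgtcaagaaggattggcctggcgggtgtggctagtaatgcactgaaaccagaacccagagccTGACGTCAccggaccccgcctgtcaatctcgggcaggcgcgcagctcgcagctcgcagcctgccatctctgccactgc
Drd2: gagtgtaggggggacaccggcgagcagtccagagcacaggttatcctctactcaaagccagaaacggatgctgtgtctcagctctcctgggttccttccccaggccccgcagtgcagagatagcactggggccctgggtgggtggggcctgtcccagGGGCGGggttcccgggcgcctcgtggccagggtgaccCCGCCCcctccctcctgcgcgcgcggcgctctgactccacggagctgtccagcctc
Rgs9: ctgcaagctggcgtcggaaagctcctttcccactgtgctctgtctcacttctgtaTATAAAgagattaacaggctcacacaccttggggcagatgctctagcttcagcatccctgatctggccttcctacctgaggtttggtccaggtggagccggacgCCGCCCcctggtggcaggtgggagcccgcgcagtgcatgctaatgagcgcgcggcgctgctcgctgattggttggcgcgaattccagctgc
Drd1: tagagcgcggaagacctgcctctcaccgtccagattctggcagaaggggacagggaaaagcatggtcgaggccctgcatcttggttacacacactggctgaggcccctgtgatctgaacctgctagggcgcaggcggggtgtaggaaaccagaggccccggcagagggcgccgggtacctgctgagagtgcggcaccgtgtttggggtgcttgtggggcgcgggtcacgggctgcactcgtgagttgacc
The Gpr6 stretch lies at chr10:41072291-41072540 on the minus strand, and the Drd2 stretch at chr9:49340153-49340402 on the plus strand. The Rgs9 stretch lies at chr11:109298182-109298431 on the minus strand, and the Drd1 stretch, the farther upstream of 2 starts, at chr13:54055659-54055908 on the minus strand. Gpr6 held a full CRE starting 78 bases before the start. The full element was present in 1.55% of 32851 such stretches of all genes. Drd2 held 2 GC boxes and Rgs9 1, a motif found in 32.7% of all stretches, and Rgs9 also held a TATA box, found in 12.4%. The Drd1 stretch shown held no match, while the one before its other start held a GC box 133 bases before that start. The CRE core, counted also where it lies within a full element, was found in 17.8% of stretches and, of the members, in Gpr6 and Tac1. In Gpr6 its only matches lay within the full element. In all, 6 of the 9 members had an entry, with 8 starts; Adora2a, Penk and Ppp1r1b had none. A match describes these letters only.

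The shallowest library was tau 2, with 17690811 counts, and the deepest was treated tau 1, with 34774643. Values are given as CPM scaled by TMM, which sets library sizes by the bulk of the genes. Prnp, the gene whose promoter drives the transgene, had 1876 and 1594 CPM in treated tau, 1684 and 1472 CPM in tau and 1654 and 876 CPM in control, and the library labelled control 1 thus had as much Prnp as the transgenic ones. Xist, the X-inactivation RNA, had 2.43 and 1.75 CPM in treated tau, 186 and 235 CPM in tau, and 0.197 and 318 CPM in control. Sex by this transcript cannot be told apart from treatment between treated tau and tau. The treated tau tables were made on another list of symbols (54134) than the other 4 tables (54429), and all 9 members are in both. Any effect of this difference on the counts cannot be told apart from treatment where treated tau is compared.

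All 9 markers were highest in tau 2. Over all genes tested, 16.9% were highest in that library. The members were chosen with earlier results of these data known, so shares set beside all genes, here and below, only describe the 9 markers. Their mean deviation from the average of the 6 libraries, in log2 CPM, was -0.39 and -0.39 in treated tau 1 and 2, 0.27 and 1.10 in tau 1 and 2, and -0.20 and -0.39 in control 1 and 2. The median over all tested genes stayed between 0.00134 and 0.00544 in every library on the same scale. The tau libraries thus stood above the others, tau 2 far more so than tau 1. The CPM of tau 2 over tau 1 was between 1.42 (Drd1) and 3.23 (Adora2a) in the 9 genes. Within treated tau and within control the markers did not move as 1 group: treated tau 1 over treated tau 2 ran from 0.411 (Gpr6) to 1.69 (Penk), and control 1 over control 2 from 0.863 (Gpr6) to 1.78 (Rgs9).

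**Figure D1:**
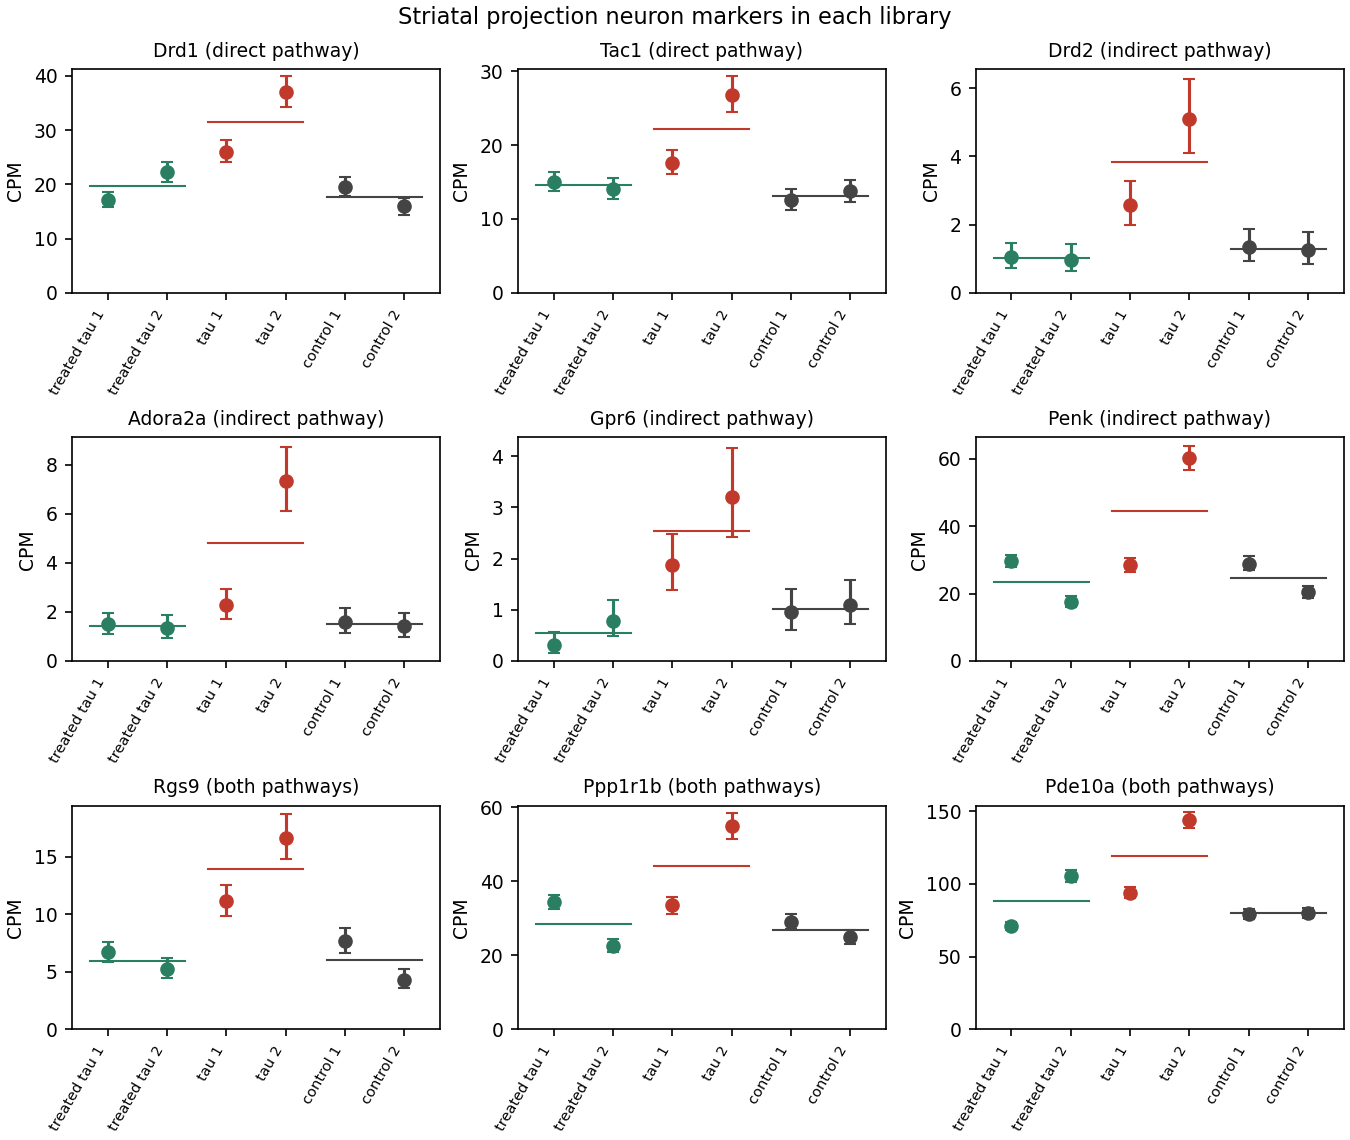
CPM of each of the 9 markers (vertical axis, from 0) in the 6 libraries (horizontal axis), with treated tau in green, tau in red and control in grey. Bars are exact 95% Poisson intervals, which cover counting error only, and lines are group means of 2 libraries; tau 2 is the highest point in every panel.

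Per length of their exons, the markers covered a wide range of levels. Penk led with 18.9 ± 9.30 RPKM (CPM divided by exon length in kilobases; mean ± SD over the 6 libraries), followed by Ppp1r1b (11.3 ± 3.97 RPKM), Pde10a (7.44 ± 2.08 RPKM), Drd1 (6.33 ± 2.14 RPKM) and Tac1 (4.90 ± 1.55 RPKM). Rgs9 (1.35 ± 0.720 RPKM), Adora2a (0.840 ± 0.770 RPKM), Drd2 (0.805 ± 0.630 RPKM) and Gpr6 (0.769 ± 0.579 RPKM) were low. The only neighbours in this order whose ranges did not overlap over the libraries were Tac1 (lowest 3.69 RPKM) and Rgs9 (highest 2.61 RPKM). Penk was above Ppp1r1b, Pde10a above Drd1, Drd1 above Tac1, and Rgs9 above Adora2a in 6 of 6 libraries each. The 3 indirect pathway receptors could not be ordered: Adora2a was above Drd2 in 3 of 6 libraries and Drd2 above Gpr6 in 2 of 6. Low levels mean few reads, with 11 to 56 counts for Gpr6, 26 to 89 for Drd2 and 36 to 128 for Adora2a.

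Among the direct pathway markers, Drd1 (chromosome 13, 54051183 to 54055705, minus strand), the receptor that raises cyclic AMP when dopamine binds, had 17.1 and 22.2 CPM in treated tau, 26.0 and 37.0 CPM in tau, and 19.6 and 15.9 CPM in control. Tac1 (chromosome 6, 7554879 to 7565834, plus strand), the precursor of substance P, had 15.1 and 14.1 CPM in treated tau, 17.6 and 26.8 CPM in tau, and 12.6 and 13.7 CPM in control. For both genes the 2 tau libraries lay above the other 4. The treated tau and control libraries of Drd1 interleaved, while those of Tac1 lay next to each other with treated tau above.

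Of the indirect pathway receptors, Drd2 (chromosome 9, 49340627 to 49408177, plus strand), which lowers cyclic AMP, had 1.05 and 0.969 CPM in treated tau, 2.58 and 5.10 CPM in tau, and 1.34 and 1.25 CPM in control. Adora2a (chromosome 10, 75316877 to 75334784, plus strand), which opposes Drd2 in the same cells, had 1.49 and 1.34 CPM in treated tau, 2.27 and 7.34 CPM in tau, and 1.58 and 1.41 CPM in control. Gpr6 (chromosome 10, 41069977 to 41072285, minus strand), the gene with the CRE shown above, had 0.322 and 0.783 CPM in treated tau, 1.88 and 3.21 CPM in tau, and 0.947 and 1.10 CPM in control. All 3 were higher in both tau libraries than in any other library, and Drd2 and Gpr6 were lower in both treated tau libraries than in either control library. The exact 95% Poisson intervals of Gpr6 ran from 0.160 to 0.575 CPM and from 0.485 to 1.20 CPM in treated tau 1 and 2, from 1.38 to 2.49 CPM in tau 1, and from 0.607 to 1.41 CPM in control 1. In control 2 the interval ran from 0.729 to 1.59 CPM. The intervals of both treated tau libraries lay below that of tau 1, while that of treated tau 2 overlapped those of both control libraries. The interval of tau 1 also overlapped those of both control libraries.

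Penk (chromosome 4, 4133531 to 4138819, minus strand), the enkephalin precursor, behaved less uniformly. It had 29.6 and 17.5 CPM in treated tau, 28.5 and 60.1 CPM in tau, and 28.9 and 20.5 CPM in control. Only tau 2 stood apart: tau 1, treated tau 1 and control 1 were at about 1 level, and the groups overlapped in all 3 comparisons. A transcript on the opposite strand, A830012C17Rik, overlaps the Penk locus, and the strand setting of the counting is not given in the sources used here.

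Of the markers of both pathways, Rgs9 (chromosome 11, 109225355 to 109298129, minus strand) had 6.69 and 5.26 CPM in treated tau, 11.1 and 16.7 CPM in tau, and 7.66 and 4.31 CPM in control. Its tau libraries lay above all others, and its treated tau libraries lay between the 2 control libraries. Ppp1r1b (chromosome 11, 98348404 to 98357796, plus strand) had 34.3 and 22.6 CPM in treated tau, 33.4 and 55.0 CPM in tau, and 29.0 and 24.8 CPM in control. Pde10a (chromosome 17, 8525372 to 8986648, plus strand) had 70.7 and 105.4 CPM in treated tau, 93.9 and 144 CPM in tau, and 79.4 and 79.9 CPM in control. For Ppp1r1b and Pde10a 1 treated tau library lay above tau 1, so these groups overlapped. Genes on the opposite strand overlap both loci, namely 1700003D09Rik at Ppp1r1b and Gm17087, Gm15425 and Gm15426 at Pde10a.

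The indirect pathway markers spread more between libraries than the direct pathway markers. The mean deviation of the 4 indirect markers was -0.65 and -0.62 in treated tau, 0.36 and 1.48 in tau, and -0.22 and -0.35 in control. For the 2 direct markers it was -0.23 and -0.09 in treated tau, 0.19 and 0.74 in tau, and -0.26 and -0.35 in control. The difference of direct minus indirect was therefore 0.42 and 0.53 in treated tau, -0.18 and -0.74 in tau, and -0.05 and 0.00426 in control, so the treated tau libraries had the highest and the tau libraries the lowest values. The ratio of Drd1 to Drd2, each in RPKM, was 11.4 and 16.1 in treated tau, 7.08 and 5.09 in tau, and 10.2 and 8.91 in control. The mean of the indirect markers includes genes with few reads. In treated tau 1, Gpr6 had 11 counts and a deviation of -1.56, while Drd1 had 586 counts there. With 2 libraries a group, these set values are descriptions and carry no test.

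Treated tau was compared with tau to see whether the striatal marker level of tau tissue differed after WDR5-0103. Drd2, Gpr6 and Rgs9 fell in treated tau, while the other 6 markers had negative fold changes that did not pass. The log2 fold change was -1.84 ± 0.39 (SE) for Drd2, -2.20 ± 0.47 for Gpr6 and -1.18 ± 0.27 for Rgs9. The edgeR quasi-likelihood test with Benjamini-Hochberg adjustment over all genes gave adjusted p = 0.0307, 0.0313 and 0.0470 in that order. Thus 3 of 9 markers were called lower, against 0.677% of the 20694 genes tested (3.76% called in either direction). Of the rest, Adora2a had -1.63 ± 0.51, Penk -0.87 ± 0.33, Drd1 -0.67 ± 0.19, Ppp1r1b -0.61 ± 0.24, Tac1 -0.58 ± 0.18 and Pde10a -0.43 ± 0.21, with adjusted p from 0.115 (Drd1) to 0.472 (Pde10a) in edgeR. No marker had a positive fold change, against 48.7% of all genes, and the median was -0.87, against -0.01 over all genes. At an unadjusted p under 0.05 in edgeR, 8 of 9 markers and 4.45% of all genes were lower. Both treated tau libraries lay below both tau libraries for 6 of 9 markers, against 20.1% of all genes. These shares describe genes chosen with earlier results of these data known and give no separate support.

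The folds kept their direction in every fit with 1 library left out, while the calls did not all hold. In such a fit the lone library of a group is assumed to vary like the libraries of the other groups. Without tau 2, no marker was called, and the log2 fold change was -1.34 for Drd2, -1.82 for Gpr6 and -0.88 for Rgs9 (edgeR adjusted p = 0.161, 0.178 and 0.258 in that order); all 9 fold changes were still negative, with a median of -0.41. Without treated tau 1 no marker was called either, at -1.90 for Drd2, -1.63 for Gpr6 and -1.37 for Rgs9, with edgeR adjusted p from 0.160 to 0.283. Without treated tau 2 the values were -1.79, -2.90 and -1.02 in the same order of genes, and none passed (edgeR adjusted p from 0.0610 to 0.329). Without tau 1, Drd2 (0.0132), Adora2a (0.00595), Tac1 (0.0298) and Gpr6 (0.0496) passed in edgeR and Rgs9 did not (0.0501). With all libraries and protein-coding genes alone, the folds were -1.83 for Drd2, -2.19 for Gpr6 and -1.16 for Rgs9, close to those above, and none passed (edgeR adjusted p = 0.154 for Drd2 and Gpr6 and 0.205 for Rgs9). DESeq2 called 5 markers, adding Drd1 (adjusted p = 0.0301) and Adora2a (0.0292).

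**Figure D2:**
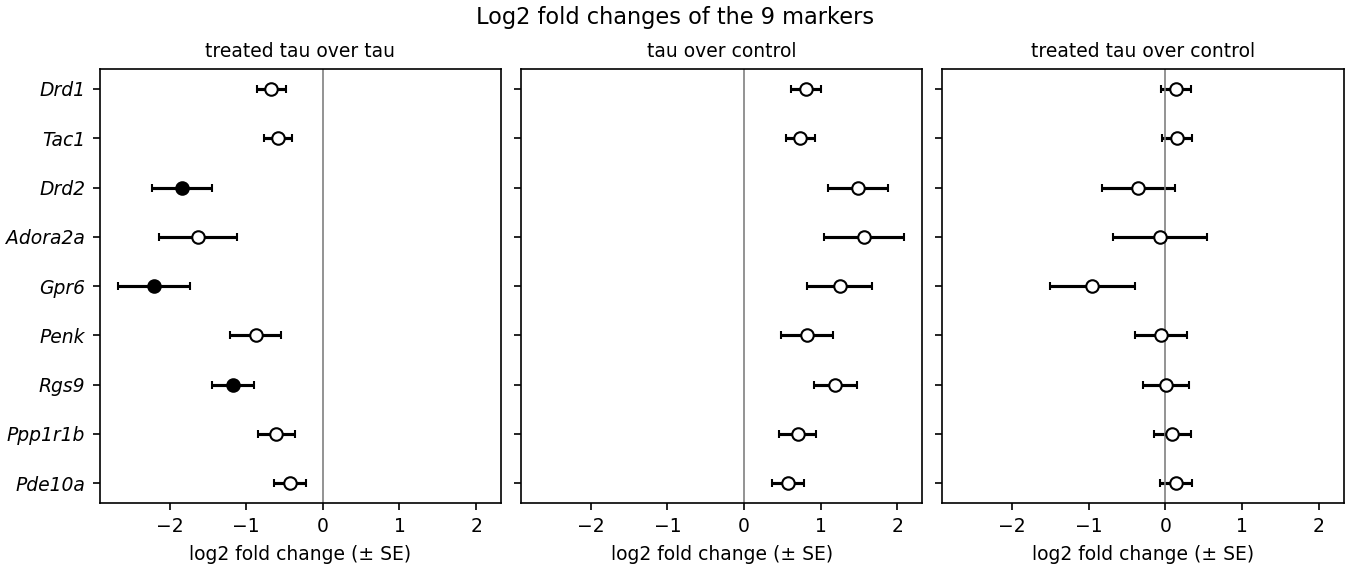
Log2 fold changes (horizontal axis) of the 9 markers (rows) with their standard errors, in panels for treated tau over tau, tau over control and treated tau over control. Filled points passed an adjusted p of 0.05 in edgeR; these were Drd2, Gpr6 and Rgs9 in treated tau over tau.

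**Figure D3:**
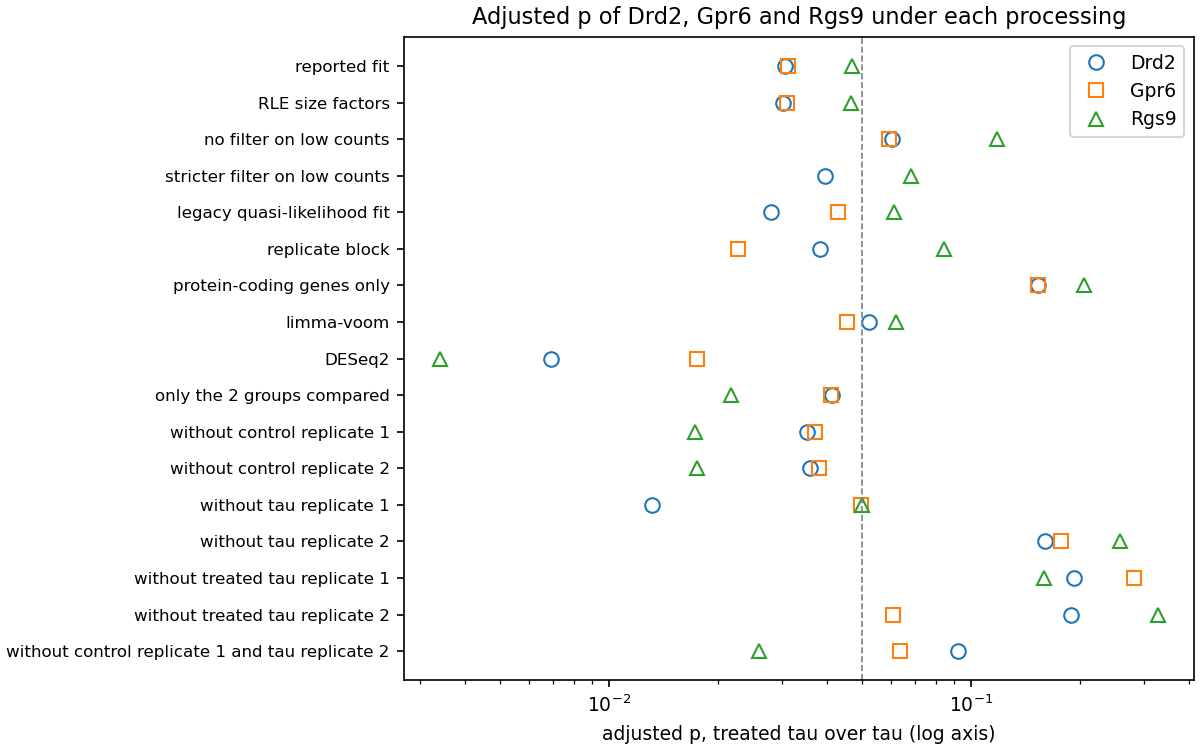
Adjusted p (horizontal axis, log scale) of Drd2, Gpr6 and Rgs9 in treated tau over tau, in the reported fit and in each alternative (rows); the dashed line is at 0.05. The 3 genes lie right of the line without tau 2, without either treated tau library, with no filter on low counts and with protein-coding genes only; Gpr6 has no point under the stricter filter, which removed it.

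Tau was compared with control to see how the transgenic tissue differed in these markers. All 9 fold changes were positive, against 49.4% of all genes, with a median log2 fold change of 0.82 against -0.00303 over all genes, and no marker passed. The values were 1.57 ± 0.52 (SE) for Adora2a, 1.49 ± 0.39 for Drd2, 1.25 ± 0.43 for Gpr6, 1.19 ± 0.28 for Rgs9, 0.82 ± 0.34 for Penk, 0.81 ± 0.19 for Drd1, 0.74 ± 0.19 for Tac1, 0.70 ± 0.24 for Ppp1r1b and 0.57 ± 0.21 for Pde10a. Group means differed 3.21-fold for Adora2a (4.80 ± 3.58 CPM in tau and 1.49 ± 0.118 CPM in control; SD, n = 2 libraries each) and 1.49-fold for Pde10a (119 ± 35.5 CPM in tau and 79.7 ± 0.370 CPM in control). In edgeR, 0 of 9 markers and 0% of all genes were called, with adjusted p from 0.441 to 0.479 for the markers. At an unadjusted p under 0.05 in edgeR, 9 of 9 markers and 4.31% of all genes were higher. DESeq2 called Drd1 (adjusted p = 0.0194) and Rgs9 (0.0245) among the 6 markers to which it gave an adjusted p, and limma-voom called 0. Both tau libraries lay above both control libraries for 8 of 9 markers, all but Penk, against 20.3% of all genes. Here too the shares describe genes chosen with earlier results known.

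Without tau 2 the 9 fold changes of tau against control were still positive, with a median of 0.56; tau was then 1 library, and the spread came from the other groups (4 markers had an unadjusted p under 0.05 in edgeR). Without the library labelled control 1 and tau 2 together, the median was 0.69. That fit set 1 tau library against 1 control library, with the spread taken from the 2 treated tau libraries alone, so its values describe those libraries and give no check over replicates. The direction was thus the same without tau 2, at a smaller size.

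Treated tau was compared with control as well, and the markers did not separate these groups. The median log2 fold change was 0.01, with 5 of 9 positive (48.8% of all genes), and none passed (adjusted p from 0.449 to 0.991 in edgeR). No marker had an unadjusted p under 0.05 in edgeR, and DESeq2 and limma-voom called 0 too, while edgeR called 4.22% of all genes. The values furthest from 0 were those of Gpr6 (-0.95 ± 0.56, SE) and Drd2 (-0.35 ± 0.48). Tac1 (0.15 ± 0.19) was higher in both treated tau libraries than in both control libraries, and Gpr6 and Drd2 lower, against 23% of all genes higher and 23.3% lower without overlap. All 3 comparisons share groups: tau enters as the group above in one and the group below in another, so its high values appear in both.

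Of 26 other genes known from striatal projection neurons, 24 were tested, and they followed the 9 markers in part. Tau 2 was the highest library for 14 of the 24. Lrrc10b had 1.75 and 1.53 CPM in treated tau, 2.82 and 9.17 CPM in tau, and 1.34 and 3.06 CPM in control, so tau 2 alone stood out. Six3, a transcription factor of indirect pathway neurons, was too low to test and reached 0.688 CPM in tau 2, 0.0784 CPM in control 2 and no count in the other 4 libraries. The signalling genes Adcy5 (adenylyl cyclase) and Gnal (its activating G protein), both also expressed in cortex, had log2 fold changes of -0.01 and -0.03 for treated tau against tau and of 0.02 and 0.04 for tau against control. The transcription factors Foxp1 (0.21 and -0.02) and Meis2 (0.07 and -0.31), in the same order of comparisons, did not follow the markers either. As a list, 16 of 24 were negative in treated tau against tau (median -0.26, none called; Lrrc10b had -1.75 ± 0.55). In tau against control 17 of 24 were positive (median 0.18, none called; Pde1b, a phosphodiesterase, had 0.30 ± 0.09). In treated tau against control 12 of 24 were positive (median -0.01), and Actn2, an actin crosslinker, was called lower (-0.61 ± 0.14, adjusted p = 0.0462 in edgeR).

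Receptors and enzymes that work with the marker proteins showed no common direction. Of 14 tested genes of dopamine, opioid, tachykinin and adenosine signalling, 8 were positive in treated tau against tau (median 0.05), 7 in tau against control (median 0.00244) and 8 in treated tau against control (median 0.00722), and none was called. Drd5, the other receptor of the D1 class, had 3.24 and 2.24 CPM in treated tau, 1.02 and 1.83 CPM in tau and 2.29 and 2.31 CPM in control. Its tau libraries were the lowest, where those of Drd1 were the highest. Drd3 and Slc6a3 did not pass the filter on low counts and were not tested. Drd3 had counts only in tau, at 0.0782 and 0.344 CPM. Slc6a3 reached 3.63 CPM in the library labelled control 1 and was between 0 and 0.186 CPM in the others. Th, the enzyme that starts dopamine synthesis, reached 27.7 CPM in control 1 and stayed between 0.820 and 2.27 CPM in the others.

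Markers of other tissue moved with some of these results. All 12 oligodendrocyte markers, genes of myelin-forming cells, were highest in tau 2, and their summed level was 2783 and 3097 CPM in treated tau, 2642 and 5949 CPM in tau, and 3179 and 1585 CPM in control, with no member at 0. Their median log2 fold change was -0.50 in treated tau against tau (0 of 12 positive), 0.85 in tau against control (12 of 12) and 0.29 in treated tau against control (12 of 12), with none called. Of its myelin genes, Mog had -0.80 ± 0.39 and Mag -0.60 ± 0.34 in treated tau against tau, and Mal 1.05 ± 0.33 and Cldn11 0.88 ± 0.31 in tau against control. Unlike the 9 markers, this list stood at -0.16 in tau 1, below treated tau 1 (-0.07) and treated tau 2 (0.06). Choroid plexus and ependymal markers (6 tested) had a median deviation of 0.47 in tau 2, and medians of -0.16, 0.51 and 0.46 in the same 3 comparisons. Ttr, the defining choroid plexus gene, was at 0 in treated tau 2 and both control libraries and no higher than 1.93 CPM elsewhere. Olfactory bulb markers stood at 3.39 in the library labelled control 1 and between -0.80 and -0.45 in the others, with medians of -0.11 (2 of 4 positive), -3.19 and -3.23 (0 of 4 each). The part of these lists in the results above was not tested.

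The list of excitatory cortical neurons stayed close to its average in every library by its median. The 12 excitatory cortical markers had a median deviation of -0.02 and -0.07 in tau 1 and 2, and between -0.19 and 0.11 in the other libraries. Their summed level was 1927 and 1939 CPM in treated tau, 1779 and 1706 CPM in tau, and 1675 and 1871 CPM in control. All 12 were positive in treated tau against tau (median 0.12), 6 in tau against control (median -0.00280) and 10 in treated tau against control (median 0.18), with none called. Rorb, a nuclear receptor of cortical neurons, had 0.42 ± 0.16 in treated tau against tau. The 12 cortical interneuron markers had medians of -0.02, -0.08 and 0.09 in the same order, the 4 claustrum markers -0.02, -0.14 and -0.11, and the 6 tested markers of septum and thalamus 0.05, -0.13 and 0.05, with none called in any comparison. Among the cortical interneuron genes the library labelled control 1 stood apart for some: Calb2, a calcium-binding protein, was at 68.9 CPM there and between 9.73 and 11.0 CPM in the other libraries. Gad1, the GABA-making enzyme, was at 449 CPM there and between 267 and 316 CPM in the others. Striatal interneuron markers had medians of 0.05, 0.18 and 0.22, none called. Of their cholinergic genes, Chat stayed between 0.274 and 0.522 CPM, and Lhx8 had counts only in tau 2 (0.115 CPM). Slc18a3, another of them, was at 0 in tau 2 and highest in treated tau 2 (0.298 CPM). Chat had a log2 fold change of 0.64 ± 0.55 in treated tau against tau and -0.14 ± 0.62 in tau against control. Slc5a7, the choline transporter, had 1.20 and 2.13 CPM in treated tau, 2.15 and 3.21 CPM in tau, and 1.70 and 1.41 CPM in control. Its log2 fold change was -0.68 ± 0.36 in treated tau against tau and 0.74 ± 0.38 in tau against control, neither called. Nos1, on the same list, had the opposite signs, with 0.14 ± 0.13 and -0.48 ± 0.13 in the same order, neither called.

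**Figure D4:**
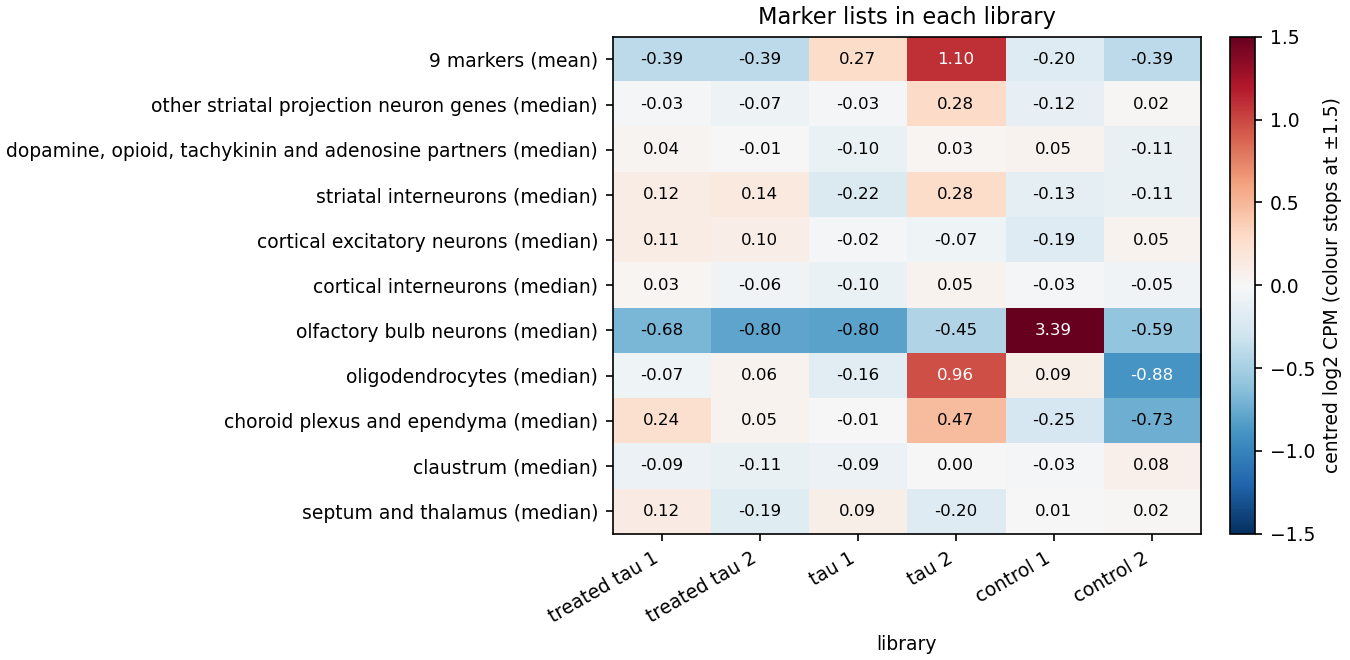
Deviation from the average of the 6 libraries in log2 CPM (colour and printed value), as the mean of the 9 markers in the top row and the median of the tested genes of each other list below, by library (columns). Tau 2 is highest for the 9 markers and the oligodendrocyte list. It is also highest, at smaller values, for choroid plexus and ependyma (0.47), other striatal projection neuron genes (0.28), striatal interneurons (0.28) and cortical interneurons (0.05). Control 1 is highest for the olfactory bulb list and, at 0.05, for the list of dopamine, opioid, tachykinin and adenosine partners.

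The genes most like the 9 markers over the 6 libraries were on none of the striatal lists. Likeness was the root mean square difference between a gene's deviations and the mean deviation of the markers, over 12635 genes with an average log2 CPM of at least 1. A gene that did not vary would score 0.545. The 10 closest scored 0.220 to 0.266 and included Mki67 (a marker of dividing cells), Emilin2, Pdk4 (a kinase that restrains pyruvate use), Plin3 (a lipid droplet protein), Gfap (the astrocyte filament), Cpm (carboxypeptidase M), Plekhg1, D7Ertd443e and Myo1d. Gfap had 56.6 and 62.9 CPM in treated tau, 66.1 and 111.8 CPM in tau, and 60.1 and 49.5 CPM in control, so here too tau 2 was highest. None of the 10 was on a list described above, and 21 other striatal genes could be ranked.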

How the data were processed

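The authors deposited 1 table of raw read counts per gene symbol for each library. Per the labels' protocols, libraries were strand-specific and ribosome-depleted; Cutadapt removed adapters, and TopHat2, run with its defaults, placed the reads on RefSeq mRNAs. The submitters' processing notes also name SAMtools, featureCounts, edgeR and mm10; their versions, the strand setting and the handling of multiply aligned reads are not stated there. Counts outside the 53640 shared symbols (0.333% to 0.352% of a library) stayed out.

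Genes passing filterByExpr at a minimum count of 10 entered 1 fit over all 6 libraries after TMM scaling, tested by quasi-likelihood in edgeR 4.0.16 under R 4.3.3 (two-sided, 3 residual degrees of freedom). Adjusted p is the Benjamini-Hochberg value over 20694 genes, called under 0.05. SE is the fold change divided by the square root of the F statistic. Log2 CPM used a prior count of 2. P-values measure the spread between these libraries only. RPKM used the union of exons in GENCODE M21 (mm10). The fit was also run on data simulated with the same dispersion for every gene and no outlying library. Only median fold changes were checked there, so that run does not bear on the calls.

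The 9 members and the lists were chosen with earlier results of these data known. Named genes were all members and the 10 most similar genes without predicted genes. For the lists described gene by gene, up to 4 called genes or the 2 of smallest p were named. Foxp1, Meis2, Adcy5, Gnal, Strip2, Rarb, Chrm4, Six3, Drd3, Slc6a3, Chat, Lhx8, Slc18a3, Calb2 and Gad1 were added after their values were seen. Alternatives were DESeq2 1.42.0, limma-voom (limma 3.58.1), RLE scaling, 2 other filters, the legacy fit, protein-coding genes only, 2 groups only, a replicate block and left-out libraries. Some genes that this rule selects are not reported here.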

Additional observations from a re-analysis of the deposited data

How the results depend on the processing

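Under every alternative run, the 9 markers kept positive fold changes in tau against control and negative ones in treated tau against tau (Gpr6 was removed by the stricter filter). In treated tau against tau, 3 markers and 779 genes were called. DESeq2 called 5 markers, the stricter filter, limma-voom and the fit without control 1 and tau 2 called 1 each (1047 genes in all in the fit without both libraries), and the fits with no filter and with protein-coding genes only (45 genes called in all) 0. The replicate block called 2 markers and 708 genes; the replicate numbers did not pair the libraries (correlations of same-numbered deviations -0.00799, 0.0101 and 0.0733). Leaving out 1 library gave 0 to 4 markers and 354 to 840 genes. In tau against control, DESeq2 called 2 markers and 54 genes, the fit without control 1 and tau 2 (1 library against 1, its spread from treated tau alone) called 1 and 130, the replicate block 0 and 0, and leaving out 1 library 0 markers and 0 to 98 genes (98 without control 2, 9 without tau 2). In treated tau against control, 0 markers were called under any alternative, against 873 genes; the count was 1113 without control 1 and tau 2, 40 with protein-coding genes only, 796 with the replicate block and 495 to 817 with 1 library left out.

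The reversals were all in treated tau against control, of fold changes that did not pass. Rgs9, at 0.01, was -0.016 with the stricter filter and -0.0013 with protein-coding genes only. Without control 1 and tau 2, Adora2a was 0.017 and Penk 0.22. With 1 library left out, Rgs9 ranged between -0.34 and 0.49, Ppp1r1b between -0.25 and 0.36, Penk between -0.49 and 0.27, Adora2a between -0.15 and 0.018, Drd1 between -0.045 and 0.33 and Pde10a between -0.17 and 0.41. The cause was not tested. Counts of 11 to 128 limit the precision of Gpr6, Drd2 and Adora2a.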
